A study of Sinotaia aeruginosa with 24 samples.

Results

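The lipid genes described here are the 211 gene clusters, of 233875 in all and of 19670 with a Swiss-Prot name, whose Swiss-Prot description names a lipid carrier, a lipoprotein receptor or an enzyme of fatty acid handling. The rule reads the name and no measured value, through 13 name patterns, of which lipoprotein receptor took 93 clusters, acyl-CoA 67 and elongation of very long chain 11, while perilipin took 0. They fall by name into 18 families, from secreted carriers and their receptors to lipases, synthesis enzymes and the enzymes of fatty acid oxidation.

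Animals carry fat between organs in protein-coated particles. In insects apolipophorin is the main carrier, in vertebrates the apolipoproteins are, and endocytic receptors of the low-density lipoprotein (LDL) receptor family, among them the LDL receptor-related proteins (LRPs), take up particles and many other ligands. Inside cells, fatty acid-binding proteins carry the acids, synthases, elongases and desaturases build them, and carnitine acyltransferases pass them into mitochondria, where acyl-CoA dehydrogenases begin their oxidation. The molluscan digestive gland secretes lipases and is a site of lipid storage.

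RNA was sequenced from freshwater snails, labelled Sinotaia aeruginosa and named Bellamya aeruginosa in the series title. The snails were given algae with cadmium, with polystyrene microplastic or with both (the combined exposure), while control snails were not treated, and all were sampled on day 42. The organs were labelled liver (the digestive gland of snails) and brain, and each of the 8 groups of organ and exposure had 3 samples, 24 in all. The design lists low, medium and high concentrations, but the sample labels do not say which one an exposed group received, nor whether replicates were separate animals. The p-values therefore measure only how far these samples spread, which may be technical.

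Libraries held 13712265 to 17145998 expected counts, and the 211 clusters took 2.57 to 3.12% of them in liver and 0.348 to 0.559% in brain. The labels were checked against marker genes in the control groups. The neuropeptide gene named FMRFamide neuropeptides averaged 440.4 ± 237 CPM (counts scaled to library size) in brain and 0.188 ± 0.255 CPM in liver, and the digestive enzyme named Endoglucanase E-4 averaged 0.915 ± 0.844 CPM in brain and 3443 ± 471 CPM in liver (SD, n = 3 each). Other markers were less separate: the nerve terminal protein Synaptosomal-associated protein 25 had 42.8 CPM in brain and 44.8 CPM in liver, and Alpha-amylase 2281 CPM in brain and 6669 CPM in liver. The samples labelled brain also held muscle transcripts, summing to 13342 ± 5133 CPM over 37 clusters in the controls. Brain control replicate 5 stood apart: its mitochondrially encoded transcripts summed to 43382 CPM, against 21281 and 20290.0 CPM in control replicates 4 and 6. In such bulk samples fewer cells of a type and less RNA per cell cannot be told apart.

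Each name is the best Swiss-Prot match of an assembled cluster, so it gives a family and not a proven orthologue. Several clusters may be pieces or near-identical copies of 1 gene and may share reads. The receptor names are the least certain. All 13 clusters named LDL receptor, very low-density lipoprotein (VLDL) receptor or LRP8 had a match score under 200, and 12 of the 13 carried an LDL receptor class A domain, a short ligand-binding repeat that many secreted proteins also hold. Of 39 clusters named LRP2 (megalin, a large endocytic receptor of absorptive epithelia in vertebrates), 28 scored under 200 and 2 scored 1000 or more. By contrast, 7 of 13 acyl-CoA dehydrogenases and 4 of 9 carnitine acyltransferases scored 1000 or more. Of the 211 clusters, 167 passed the filter on low counts in liver, 146 in brain and 131 in both, and 29 passed in neither. A cluster was called where edgeR's quasi-likelihood test gave a Benjamini-Hochberg adjusted p under 0.05 over all clusters tested. Where the groups of a called cluster are said not to overlap, this describes the samples and adds no support beyond the call.

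The unexposed organs were compared first. More lipid clusters were lower than higher in control brain relative to control liver. In TPM, counts scaled to cluster length and library size, the 211 clusters summed to 1643 ± 381 in control brain and 27558 ± 1726 in control liver (SD, n = 3 each). Of 183 tested clusters, 30 were called higher in brain and 108 lower, which is 75.4% of them, where 49.7% of all 78809 tested clusters were called, 23.5% higher and 26.2% lower. Their median log2 fold change, brain over liver, was -1.60, against 0.0037 for all clusters, and it stayed at -1.60 with the 17 clusters that had no count in 1 of the control groups set at a floor of 3 counts. Some family medians did move with that floor. They went from -4.125 to -2.75 for LRP1 and LRP1B clusters, from -8.07 to -6.3 for lipases and from -10.23 to -9.54 for LDL receptor, VLDL receptor and LRP8 names. The count of called clusters lay between 129 and 140 whichever of the 24 libraries was left out. The shares of all clusters, 23.5% called higher and 26.2% lower, also apply to the family counts of the control organs below.

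The carriers split between the organs. Apolipophorins, Cluster-2499.87715, had 0.526, 0.331 and 0.769 CPM in control brains, against 9918, 9076 and 12682 CPM in control livers. A second Apolipophorins cluster, Cluster-2499.89339, had 1430.3, 1333 and 1766 CPM in control brains, against 861, 893 and 896 CPM in control livers. The first was thus near 0 in brain and abundant in liver (log2 fold change -14.22 ± 0.43 SE, edgeR adjusted p = 2.41e-17), and the second was higher in every control brain than in any control liver (0.77 ± 0.23, edgeR adjusted p = 0.00812). Per length, Cluster-2499.89339 was the most abundant lipid cluster in control brain, with 220 ± 40.1 TPM, or 13.4% of the summed TPM of the 211 clusters there. Apolipoprotein D (Cluster-2499.86302), a lipocalin that binds small lipids in vertebrates, had 34.2, 21.7 and 37.3 CPM in control brains and 14.4, 14.6 and 16.7 CPM in control livers, without overlap (1.03 ± 0.30, edgeR adjusted p = 0.00704). Apolipoprotein B-100 (Cluster-2499.89975), named for the main LDL protein of vertebrates, averaged 97.3 ± 26.8 CPM in control brain and 146 ± 18.2 CPM in control liver and was not called (edgeR adjusted p = 0.148).

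Receptor-named clusters held both extremes. All 12 tested clusters named LDL receptor, VLDL receptor or LRP8 were called lower in brain, and together they summed to 6.66 ± 3.12 TPM in control brain and 6241 ± 345 TPM in control liver. The most abundant, Low-density lipoprotein receptor (Fragment), Cluster-2499.87379, had 0.631, 0.773 and 1.49 CPM in control brains, against 1857, 1593 and 1932 CPM in control livers. LRP2 names went both ways, with 8 called higher in brain and 15 lower of 33 tested. LRP2 Cluster-2499.86347 had 0.526, 0.331 and 0.769 CPM in control brains, against 1731, 1504 and 1957 CPM in control livers, while LRP2 Cluster-2499.38543 had 144, 43.6 and 129 CPM in control brains, against 0.700, 1.87 and 0.668 CPM in control livers. Clusters of 1 name were therefore found at high levels in one organ and near 0 in the other. Of 14 tested LRP1 and LRP1B clusters, 1 was called higher in brain and 9 lower, and the higher one (LRP1B Cluster-2499.117458) averaged 49.4 ± 18.2 CPM in control brain and 0.404 ± 0.542 CPM in control liver. In vertebrates LRP4 acts at synapses and LRP5 and LRP6 in Wnt signalling. Clusters of these names went both ways, with 6 called higher in brain and 4 lower of 14 tested. Of all tested clusters, 23.5% were called higher and 26.2% lower. LRP4 Cluster-2499.90911 averaged 75.9 ± 4.92 CPM in control brain and 36.3 ± 6.49 CPM in control liver (1.06 ± 0.16, edgeR adjusted p = 8.51e-06). The cluster named only Low-density lipoprotein receptor-related protein (Cluster-2499.96181) had no count in control brains and 1809 counts in control livers, which makes it at least 1010-fold lower in brain by a floor of 3 counts over the group, a bound that covers counting error only.

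Active lipases split triglycerides in digestion, but 5 of the 11 clusters of this family are named Inactive pancreatic lipase-related protein 1. Clusters of the family were mostly near 0 in control brain. Of 11 tested, 1 was called higher in brain and 9 lower, and the family summed to 54.7 ± 8.20 TPM in control brain and 4396 ± 199 TPM in control liver. Pancreatic triacylglycerol lipase (Fragment), Cluster-2499.87949, had 0.421, 0.221 and 1.79 CPM in control brains, against 4062, 3489.9 and 4132 CPM in control livers. The exception was an Inactive pancreatic lipase-related protein 1 cluster, Cluster-2499.82735, with 31.5 ± 3.17 CPM in control brain and 14.2 ± 2.37 CPM in control liver (1.15 ± 0.19, edgeR adjusted p = 2.45e-05). Pancreatic lipase-related protein 2, Cluster-2499.82700, was near-equal, at 42.0 ± 3.41 CPM in control brain and 44.9 ± 2.29 CPM in control liver.

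The 6 clusters named fatty acid-binding protein went both ways, with 2 called higher in brain and 3 lower. Fatty acid-binding protein, liver (Cluster-2499.88443) had 1.89, 0.166 and 2.51 CPM in control brains, against 3122, 2821 and 4178 CPM in control livers, and at 4679 ± 789 TPM it was the most abundant lipid cluster of control liver. The organ in such a name is that of the vertebrate match. Fatty acid-binding protein, brain, Cluster-2499.89048, averaged 0.946 ± 0.314 CPM in control brain and 108 ± 17.3 CPM in control liver, the reverse of its name, and a second cluster of that name, Cluster-2499.85935, with 63.2, 13.9 and 64.8 CPM in control brains and 14.2, 33.3 and 25.9 CPM in control livers, overlapped between the organs and was not called (edgeR adjusted p = 0.0702). The 2 higher in brain were Fatty acid-binding protein 9 (Cluster-2499.46247, 3.24 ± 0.30) and Fatty acid-binding protein, liver-type (Cluster-2499.35045, 3.23 ± 0.46) on the log2 scale.

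Among synthesis genes, 1 of 2 fatty acid synthase clusters was called higher in brain and most desaturases lower. Fatty acid synthase (Cluster-2499.99151), which builds palmitate, had 73.0, 63.4 and 75.4 CPM in control brains and 46.0, 59.0 and 40.2 CPM in control livers, without overlap (0.54 ± 0.18, edgeR adjusted p = 0.0154), though 3 of 24 omissions of a library ended this call. Of 23 tested clusters of the elongation cycle, which lengthens fatty acids beyond palmitate, 4 were called higher in brain and 13 lower, with a median log2 fold change of -0.91. Desaturases, which place double bonds, were lower in brain for 6 of 8 tested clusters and higher for 1, with a median of -2.46. Fatty acid desaturase 2 (Cluster-2499.89207) had 34.7, 29.6 and 48.5 CPM in control brains, against 332, 299.6 and 337 CPM in control livers (-3.10 ± 0.18, edgeR adjusted p = 7.26e-13). Of 8 fatty acyl-CoA reductases, which make fatty alcohols, 5 were called lower and 0 higher. Diacylglycerol O-acyltransferase 1 (Cluster-2499.56456), which makes triglyceride, was also lower in brain (-0.74 ± 0.25, edgeR adjusted p = 0.0178, a call that 3 of 24 omissions ended).

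Most oxidation genes were lower in brain. All 12 tested acyl-CoA dehydrogenases, 9 of 11 later enzymes of oxidation and 5 of 6 carnitine acyltransferases were called lower in brain and 0 higher, with median log2 fold changes of -2.27, -1.94 and -1.25. Long-chain specific acyl-CoA dehydrogenase, mitochondrial (Cluster-2499.87165) had 17.9, 14 and 17.2 CPM in control brains, against 141, 129.5 and 159.6 CPM in control livers (-3.13 ± 0.16, edgeR adjusted p = 5.90e-14). 3-ketoacyl-CoA thiolase, mitochondrial (Cluster-2499.88496), which releases acetyl-CoA at the end of each round, had 31.7, 25.2 and 24.9 CPM in control brains, against 168, 151 and 168 CPM in control livers. Carnitine O-palmitoyltransferase 1, liver isoform (Cluster-2499.95754), the entry step of mitochondrial oxidation, differed less, at 77.8, 84.3 and 88.5 CPM in control brains and 171, 199 and 205 CPM in control livers (-1.20 ± 0.16, edgeR adjusted p = 9.64e-07). Within each of these 3 genes the control groups did not overlap.

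**Figure D1:**
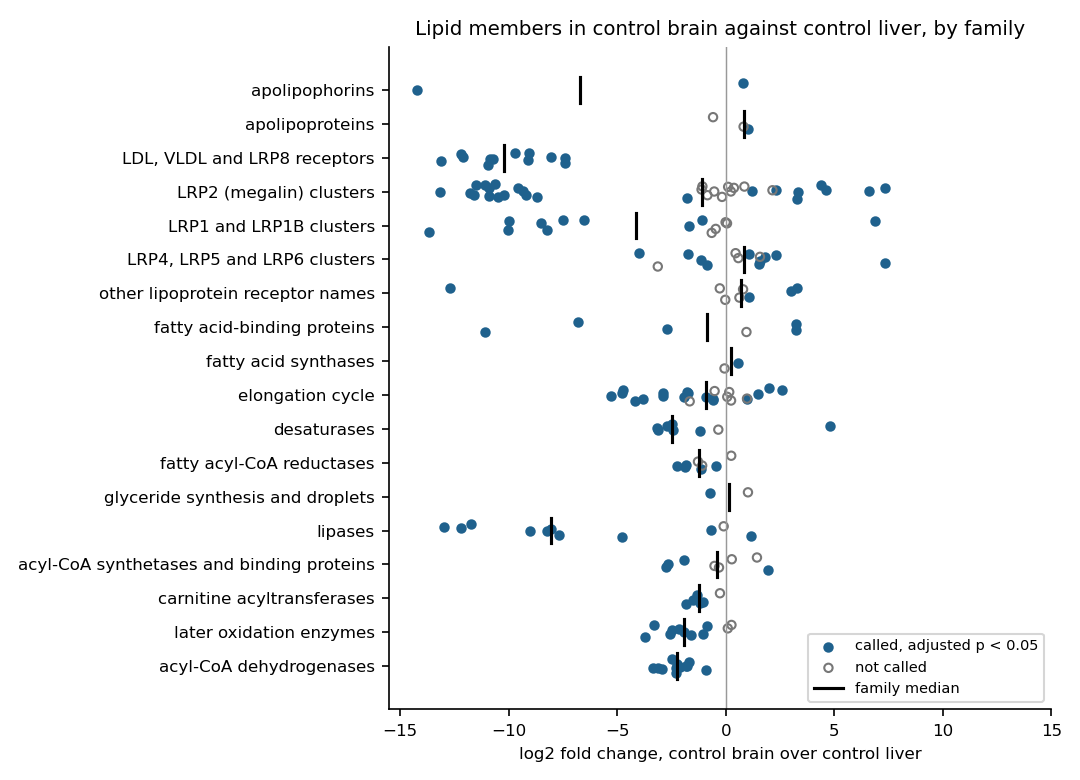
Log2 fold change of control brain over control liver for each tested lipid cluster (x axis), by family (y axis). Filled points are called, open points are not, and the bar is the family median, which lies at -2.27 for acyl-CoA dehydrogenases and at 0.82 for LRP4, LRP5 and LRP6 clusters. Points are spread vertically within a family only for legibility.

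The exposures called lipid clusters at shares on either side of those of all clusters. Over the 6 comparisons of an exposure with its controls there were 37 calls of 30 distinct clusters, 21 in liver and 11 in brain, with 2 in both. The called share of tested lipid clusters ran from 0.685% to 8.98% over these comparisons and that of all clusters from 3.14% to 7.08%, and the lipid share was above that of all clusters with polystyrene and with both in liver and below it in the other 4 comparisons. Of the 37 calls 24 were of lipoprotein receptor names, which made up 71 of the 167 lipid clusters tested in liver and 52 of the 146 in brain. Of these 24, 12 came from the combined exposure in liver, and 0 of 52 receptor names were called with it in brain. The summed lipid TPM in liver was 31280.0 ± 1722.5 with cadmium, 28303 ± 2143 with polystyrene, 27514 ± 860.5 with both and 27558 ± 1726 in controls. In CPM, which is not per length, the order differed, with 28887 ± 2561 with cadmium, 29377 ± 1943 with polystyrene, 30869 ± 1203 with both and 27942 ± 2820.2 in controls. In brain the summed lipid TPM was 1882.5 ± 104 with cadmium, 1922 ± 199 with polystyrene, 2033 ± 203 with both and 1643 ± 381 in controls. The summed lipid CPM in brain was 4803 ± 1059 with cadmium, 4435 ± 791 with polystyrene, 5187 ± 885 with both and 4290 ± 529 in controls. Cadmium thus stood below polystyrene in TPM and above it in CPM. Groups of 3 allow an exact permutation test of 1 value no p under 0.1, so calls rest on edgeR's spread shared over all clusters. Only 5 of the 37 calls were kept whichever library of the organ was left out, and for the others the number of the 12 omissions that ended the call is given.

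**Figure D2:**
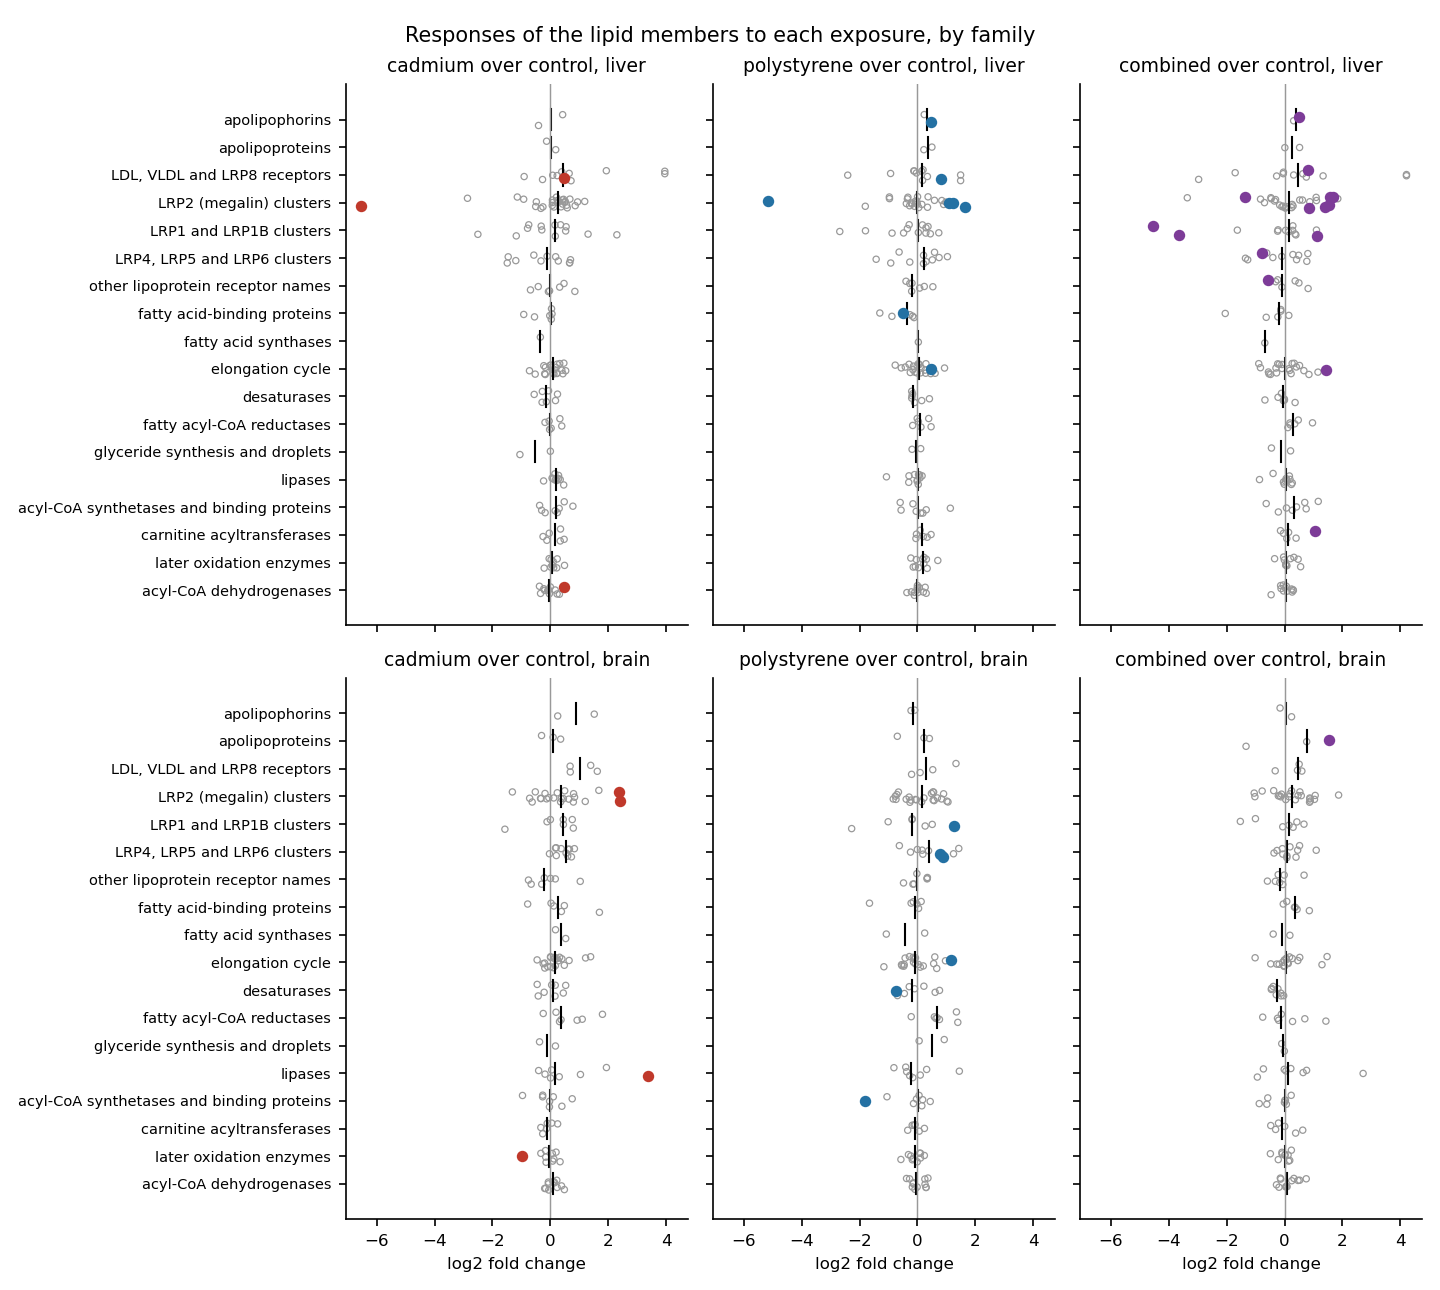
Log2 fold change of each exposure over the controls of its organ for each tested lipid cluster (x axis), by family (y axis). Filled points are called, open points are not, and bars are family medians. The combined exposure in liver holds 15 filled points, 10 to the right of 0, and the combined exposure in brain holds 1.

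The combined exposure gave the most calls in liver. Of 167 tested clusters 10 were called higher and 5 lower (8.98%), where 6.24% of all tested clusters were called, 2.86% higher and 3.39% lower. The median log2 fold change was 0.06 against 0.0030 for all. Receptor names had 12 calls among 71 tested, with 7 higher and 5 lower, and the other 96 lipid clusters had 3, all higher. The number called fell to 3 without control replicate 2.

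The 3 calls that held whichever library was left out were all of clusters named LRP2. LRP2 Cluster-2499.96345, 9331 bases long with a match score of 2857, had 16.2, 12.4 and 9.54 CPM in combined-exposure livers, against 3.47, 4.72 and 4.77 CPM in control livers. LRP2 Cluster-2499.69041, 7210 bases long with a score of 1330, had 30.9, 26.5 and 20.3 CPM in combined-exposure livers, against 11.7, 7.77 and 9.91 CPM in control livers. The shorter LRP2 Cluster-2499.82790 had 14.3, 11.1 and 10.8 CPM in combined-exposure livers, against 5.77, 3.26 and 3.33 CPM in control livers. In each case all exposed livers stood above all control livers. The log2 fold changes were 1.55 ± 0.30 (edgeR adjusted p = 0.0103), 1.40 ± 0.22 (0.00370) and 1.54 ± 0.28 (0.00697), all higher in the combined exposure. Muscle markers summed to 1355 ± 28.8 CPM in combined-exposure livers and 898 ± 62.4 CPM in control livers, and cilia markers to 426 ± 27.9 CPM in combined-exposure livers and 1062.5 ± 447 CPM in control livers, and their part in these changes was not tested. In the control organs the 3 clusters did not differ by call: Cluster-2499.96345 averaged 5.81 ± 1.42 CPM in brain and 5.39 ± 0.887 CPM in liver.

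Polystyrene alone moved the same 3 LRP2 clusters. Cluster-2499.96345 had 10.7, 13.4 and 16.2 CPM in polystyrene livers, above all 3 control livers (1.63 ± 0.30, edgeR adjusted p = 0.0113, kept in every omission). Cluster-2499.69041 had 18.9, 19.9 and 23.6 CPM (1.09 ± 0.22, edgeR adjusted p = 0.0181) and Cluster-2499.82790 had 7.83, 11.1 and 9.99 CPM (1.23 ± 0.28, edgeR adjusted p = 0.0284), each call ended by 4 of 12 omissions. With cadmium alone none of the 3 was called. Cluster-2499.96345 had 5.04, 3.79 and 8.99 CPM in cadmium livers, Cluster-2499.69041 13.1, 12.5 and 21.3 CPM and Cluster-2499.82790 2.99, 3.92 and 6.07 CPM. Set against cadmium directly, the combined exposure was higher for Cluster-2499.82790 (1.48 ± 0.28, edgeR adjusted p = 0.0153, ended by 2 of 12 omissions), while the other two were not called in that comparison. Muscle markers summed to 1150, 1062 and 1116 CPM in polystyrene livers and 1221, 1069 and 1378 CPM in cadmium livers. Both groups lay above all control livers, at 952, 830 and 914 CPM, and the part of these markers was not tested. The comparisons share their control libraries and are not independent of each other.

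Of the abundant carriers, 1 apolipophorin cluster rose. Apolipophorins Cluster-2499.89339 had 1017, 962 and 1022 CPM in combined-exposure livers, 908, 922 and 1082 CPM in polystyrene livers and 684, 729 and 709.9 CPM in control livers. Both exposed groups lay wholly above the controls, by log2 fold changes of 0.50 ± 0.11 for the combined exposure (edgeR adjusted p = 0.0196, ended by 4 of 12 omissions) and 0.46 ± 0.11 for polystyrene (edgeR adjusted p = 0.0402, ended by 9). With cadmium the values were 906, 826 and 1119 CPM, also above the controls but not called. The liver-high Apolipophorins Cluster-2499.87715 had 10440.0, 10468 and 10547 CPM in combined-exposure livers, 6519, 4875 and 7689 CPM in cadmium livers and 7875, 7405 and 10049 CPM in control livers. Among the comparisons within liver, it was called only between the combined exposure and cadmium (0.72 ± 0.14, edgeR adjusted p = 0.0204, ended by 4 of 12 omissions). Polystyrene livers had 9983, 9457 and 10349 CPM.

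**Figure D3:**
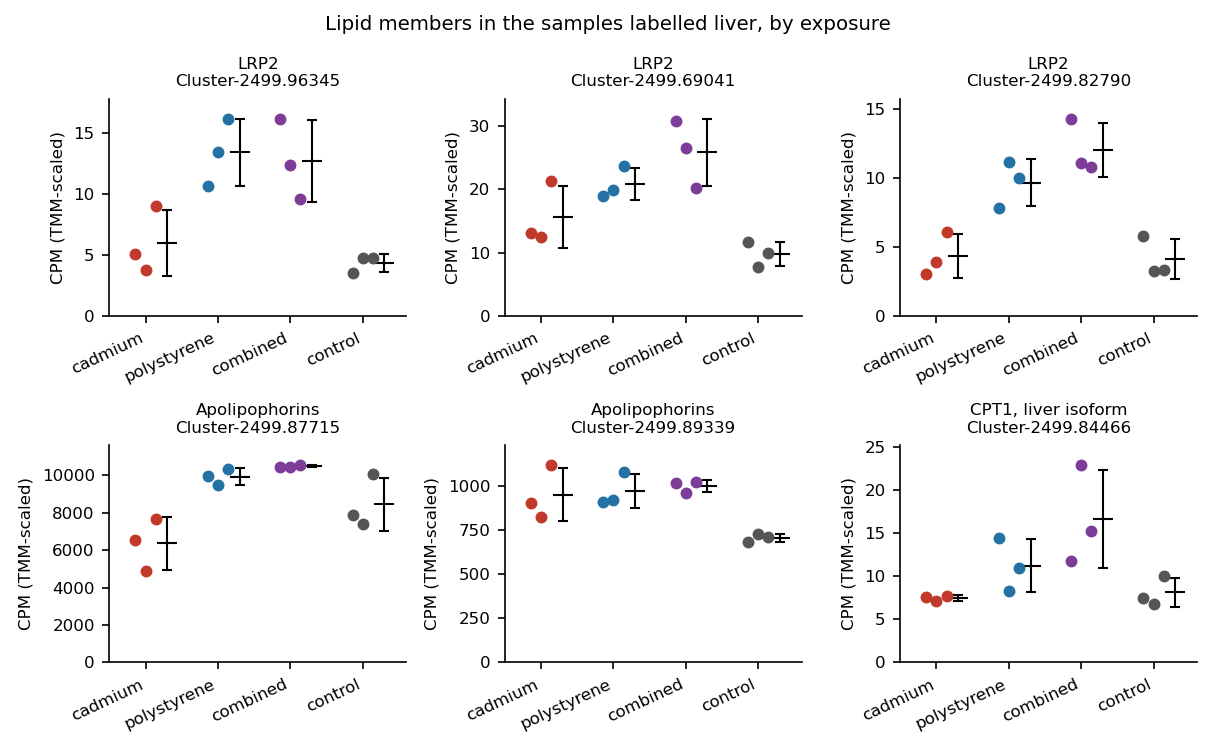
CPM of 6 lipid clusters in each liver sample (points, 3 per group), with mean and SD beside them (bars); y axes are linear and start at 0. The 3 LRP2 clusters are higher in polystyrene and combined-exposure livers than in all control livers, and Apolipophorins Cluster-2499.87715 is lowest in cadmium livers, at 4875 to 7689 CPM.

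Other receptor names moved in both directions in combined-exposure livers. LRP1B Cluster-2499.91149 rose, with 18, 12.5 and 19.2 CPM in combined-exposure livers and 5.21, 7.98 and 9.53 CPM in control livers (1.13 ± 0.26, edgeR adjusted p = 0.0240, ended by 3 of 12 omissions). Low-density lipoprotein receptor Cluster-2499.86714 rose to 174, 92.4 and 136 CPM in combined-exposure livers, against 81.7, 68.7 and 80.2 CPM in control livers (0.80 ± 0.22, edgeR adjusted p = 0.0464, ended by 8). LRP4 Cluster-2499.90911 fell, with 20, 13.8 and 16.9 CPM in combined-exposure livers and 24.6, 35.5 and 27.2 CPM in control livers (-0.78 ± 0.17, edgeR adjusted p = 0.0158, ended by 2). Low-density lipoprotein receptor class A domain-containing protein 2 (Cluster-2499.85307) was lower as well (-0.58 ± 0.14, edgeR adjusted p = 0.0288, ended by 4). The other 3 falls were of clusters that varied widely between control livers or had few counts. LRP1 Cluster-2499.86220 had 5.11, 2.75 and 2.76 CPM in combined-exposure livers, against 138, 48.1 and 62.4 CPM in control livers (edgeR adjusted p = 0.0469, ended by 10). LRP1 Cluster-2499.115654 had 0.388, 0.145 and 0.605 CPM in combined-exposure livers, against 0.903, 10.1 and 3.71 CPM in control livers (edgeR adjusted p = 0.0242, ended by 4). Cilia markers summed to 394, 441 and 443 CPM in these combined-exposure livers and 649, 1537 and 1002 CPM in the control livers, and their part was not tested. LRP2 Cluster-2499.81889 had 5.17, 2.17 and 2.55 CPM in combined-exposure livers and 10.0, 7.21 and 8.17 CPM in control livers (edgeR adjusted p = 0.0380, ended by 8).

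Among fatty acid enzymes in combined-exposure livers, 1 of 6 tested carnitine acyltransferases and 1 of 22 elongation-cycle clusters rose, and no acyl-CoA dehydrogenase (12 tested), desaturase (7), lipase (11) or fatty acid-binding protein (6) was called. Carnitine O-palmitoyltransferase 1, liver isoform, Cluster-2499.84466, had 11.8, 22.9 and 15.3 CPM in combined-exposure livers, against 7.50, 6.80 and 10.1 CPM in control livers, without overlap (1.04 ± 0.25, edgeR adjusted p = 0.0266, ended by 4 of 12 omissions). It was also above cadmium livers, which had 7.62, 7.07 and 7.71 CPM (1.16 ± 0.25, edgeR adjusted p = 0.0277, ended by 5). The more abundant cluster of that name, Cluster-2499.95754, was not called in any exposure. A Very-long-chain 3-oxoacyl-CoA reductase, Cluster-2499.105323, had 1.68, 3.91 and 2.08 CPM in combined-exposure livers and 1.04, 0.694 and 1.06 CPM in control livers (1.45 ± 0.41, edgeR adjusted p = 0.0495, ended by 9).

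Polystyrene in liver called 6 clusters higher and 2 lower of 167, or 4.79%, where 3.14% of all tested clusters were called, 1.58% higher and 1.56% lower. The number called fell to 1 without control replicate 2, polystyrene replicate 2 or polystyrene replicate 3. Besides the LRP2 and apolipophorin clusters, a Very low-density lipoprotein receptor name, Cluster-2499.70998, had 1364, 1339.6 and 1267 CPM in polystyrene livers, against 679.9, 687 and 879 CPM in control livers (0.82 ± 0.19, edgeR adjusted p = 0.0362, ended by 7 of 12 omissions). In combined-exposure livers the same cluster had 478, 854 and 853 CPM, below every polystyrene liver (combined against polystyrene -0.86 ± 0.19, edgeR adjusted p = 0.0467, ended by 10). Very-long-chain 3-oxoacyl-CoA reductase Cluster-2499.82940, an enzyme of chain elongation, had 35.7, 38 and 39.5 CPM in polystyrene livers and 28.0, 28.5 and 25.1 CPM in control livers (0.47 ± 0.12, edgeR adjusted p = 0.0436, ended by 7). Fatty acid-binding protein, liver, Cluster-2499.86363, fell to 86.8, 75.0 and 69.9 CPM in polystyrene livers, against 102, 116 and 107 CPM in control livers (-0.49 ± 0.11, edgeR adjusted p = 0.0227, ended by 4). All 6 tested fatty acid-binding protein clusters had a log2 fold change below 0 with polystyrene, with a median of -0.37, and 1 of them was called. Of the 167 lipid clusters 87 had a change above 0 and 80 below, and the median over all tested clusters was 0. The 6 clusters may share reads and are not independent, and the family was picked after its values were seen, so the shared sign carries no test.

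Cadmium in liver called 2 clusters higher and 1 lower of 167, or 1.80%, where 3.46% of all tested clusters were called, 1.66% higher and 1.8% lower. LRP8 Cluster-2499.87901 had 869, 953 and 926 CPM in cadmium livers, against 713, 596 and 669 CPM in control livers (0.47 ± 0.10, edgeR adjusted p = 0.0230, ended by 4 of 12 omissions). Long-chain specific acyl-CoA dehydrogenase Cluster-2499.87165 had 143, 185 and 149 CPM in cadmium livers and 112, 106 and 126 CPM in control livers (0.47 ± 0.12, edgeR adjusted p = 0.0429, ended by 9). Both stood above every control liver with cadmium alone, and both were lower in combined-exposure than in cadmium livers. LRP8 Cluster-2499.87901 had 596, 668 and 651 CPM in combined-exposure livers (combined against cadmium -0.52 ± 0.10, edgeR adjusted p = 0.0197, ended by 4). The dehydrogenase had 111, 103 and 102 CPM there (-0.59 ± 0.12, edgeR adjusted p = 0.0197, ended by 3). The number called with cadmium fell to 0 without control replicate 2, control replicate 3 or cadmium replicate 1.

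The cluster that fell with cadmium was LRP2 Cluster-2499.114993, one of the brain-high clusters. It had 0.136, 0.0643 and 0.0714 CPM in cadmium livers, 0.0658, 0.308 and 0.343 CPM in polystyrene livers and 0.834, 13.9 and 12.6 CPM in control livers. Control livers 2 and 3 were thus high and control liver 1 close to the exposed livers. Cilia markers, 127 clusters, summed to 663, 607 and 476 CPM in cadmium livers, 447, 784 and 1044 CPM in polystyrene livers and 649, 1537 and 1002 CPM in control livers, where control liver 1 was also the lowest, and their part in this result was not tested. It was called in both comparisons (edgeR adjusted p = 0.0254 for cadmium, ended by 5 of 12 omissions, and 0.0378 for polystyrene, ended by 9). Combined-exposure livers had 1.62, 0.940 and 0.0672 CPM of this cluster, which overlapped the controls, and were not called. Cilia markers in these combined-exposure livers summed to 394, 441 and 443 CPM, below every control liver.

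Between the combined exposure and a single one in liver, calls were few. Against cadmium 5 clusters were called higher and 3 lower of 167 (4.79%), where 2.5% of all tested clusters were called, 1.12% higher and 1.38% lower. Against polystyrene 1 was called higher and 1 lower, where 1.32% of all were called, 0.491% higher and 0.829% lower. Without cadmium replicate 2 the first count fell to 0. Beyond those given above, Medium-chain acyl-CoA ligase ACSF2, mitochondrial (Cluster-2499.76419), which activates medium-chain fatty acids, had 13.7, 18.7 and 16.8 CPM in combined-exposure livers and 11.5, 9.58 and 8.92 CPM in cadmium livers (0.71 ± 0.17, edgeR adjusted p = 0.0382, ended by 6 of 12 omissions). Short LRP2 Cluster-2499.67501 was also higher than with cadmium (edgeR adjusted p = 0.0367, ended by 7), as was LRP2 Cluster-2499.82482 than with polystyrene (edgeR adjusted p = 0.0496, ended by 11), and LRP4 Cluster-2499.90911 was lower than with cadmium (edgeR adjusted p = 0.0476, ended by 8). The count against polystyrene was 0 in 7 of the 12 omissions: control replicate 2, any cadmium replicate, polystyrene replicate 2 or 3, or combined replicate 3.

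In brain, polystyrene gave the most lipid calls, with 4 clusters higher and 2 lower of 146 (4.11%), where 7.08% of all tested clusters were called, 4.66% higher and 2.42% lower. LRP4 Cluster-2499.90911 had 175, 149 and 178 CPM in polystyrene brains, against 103, 93.2 and 93.6 CPM in control brains, without overlap (0.79 ± 0.16, edgeR adjusted p = 0.0101, kept in every omission). Cadmium brains had 147, 135 and 140.2 CPM and combined-exposure brains 122, 112 and 147 CPM, all above the control brains but not called (edgeR adjusted p = 0.0739 and 0.212). This cluster, 3526 bases long, has a match score of only 198. A longer LRP4 cluster with a score of 2420, Cluster-2499.77190, had 19.4, 25.3 and 30.2 CPM in polystyrene brains, against 14.5, 12.5 and 14 CPM in control brains (0.87 ± 0.23, edgeR adjusted p = 0.0380, ended by 6 of 12 omissions). LRP1 Cluster-2499.91614, an 18316-base cluster with a score of 3744 whose vertebrate match is a large endocytic receptor, had 44.8, 45.0 and 73.4 CPM in polystyrene brains, against 27.3, 25.8 and 15.8 CPM in control brains (1.25 ± 0.31, edgeR adjusted p = 0.0280, ended by 3).

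Enzymes changed in polystyrene brains in both directions. Elongation of very long chain fatty acids protein 4 (ELOVL4, Cluster-2499.82230), which in vertebrates makes the very long chains of neural lipids, had 14.4, 24.8 and 23.7 CPM in polystyrene brains, against 8.0, 9.11 and 11.2 CPM in control brains (1.15 ± 0.25, edgeR adjusted p = 0.0130, ended by 2 of 12 omissions). Acyl-CoA Delta-4 desaturase (Cluster-2499.87915) had 43.1, 46.5 and 49.1 CPM in polystyrene brains and 60.3, 97.0 and 75.4 CPM in control brains (-0.74 ± 0.21, edgeR adjusted p = 0.0465, ended by 10, among them control replicate 5). Medium-chain acyl-CoA ligase ACSF2 Cluster-2499.109894, a low cluster, had 0.601, 1.26 and 0.830 CPM in polystyrene brains and 3.40, 3.42 and 2.73 CPM in control brains (-1.81 ± 0.49, edgeR adjusted p = 0.0370, ended by 6). In none of these clusters did polystyrene and control brains overlap, which adds no separate support because they were picked by their call. The number called fell to 1 without polystyrene replicate 6.

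In combined-exposure brains 2 of these clusters were lower than in polystyrene brains. ELOVL4 Cluster-2499.82230 had 8.83, 9.68 and 11 CPM in combined-exposure brains, against 14.4, 24.8 and 23.7 CPM in polystyrene brains (-1.09 ± 0.25, edgeR adjusted p = 0.0260, ended by 4 of 12 omissions). LRP4 Cluster-2499.77190 had 13.9, 10.9 and 14.5 CPM in combined-exposure brains and 19.4, 25.3 and 30.2 CPM in polystyrene brains (-0.93 ± 0.23, edgeR adjusted p = 0.0425, ended by 7). In that comparison 0 clusters were called higher and 2 lower (1.37%), where 3.51% of all tested clusters were called, 1.24% higher and 2.26% lower. The count fell to 0 without polystyrene replicate 5 or 6 or combined replicate 4 or 5. LRP1 Cluster-2499.91614 had 27.7, 25.5 and 31.2 CPM in combined-exposure brains and was not called against polystyrene.

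**Figure D4:**
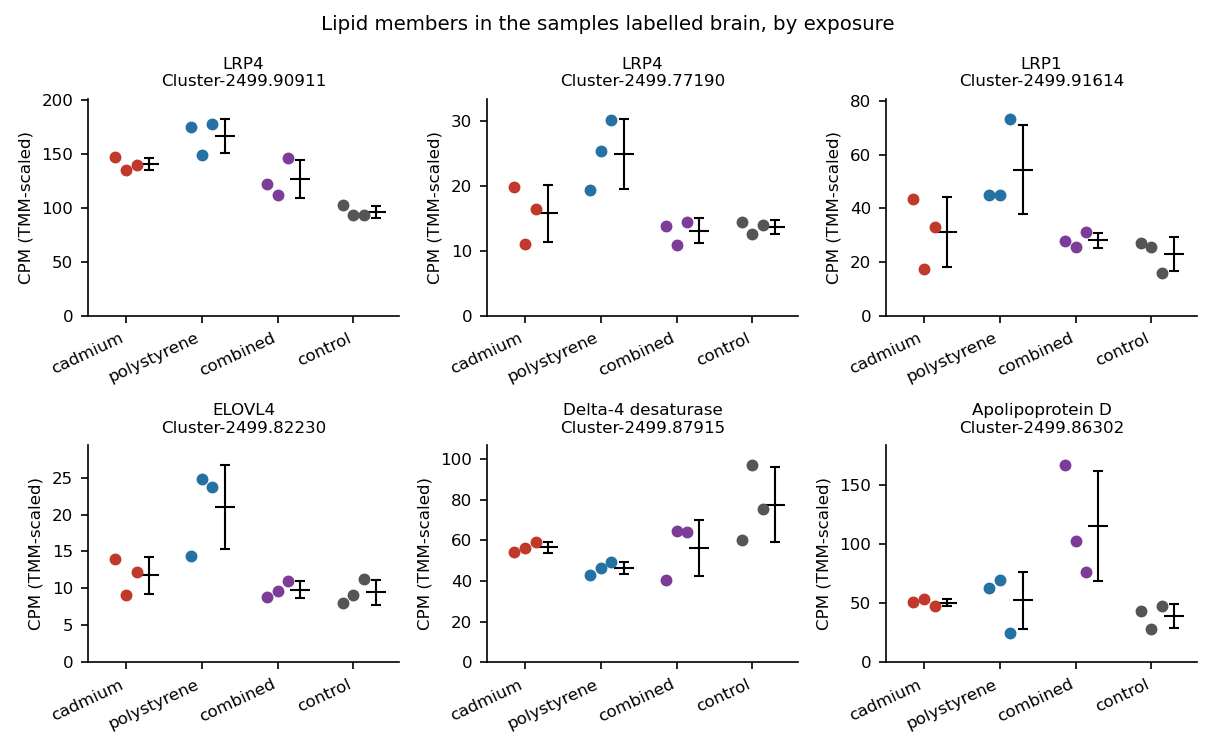
CPM of 6 lipid clusters in each brain sample (points, 3 per group), with mean and SD beside them (bars); y axes are linear and start at 0. Both LRP4 clusters, LRP1 and ELOVL4 are higher in polystyrene brains than in all control brains, and Apolipoprotein D is highest in combined-exposure brains, at 76.7 to 167 CPM.

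The combined exposure called 1 lipid cluster in brain, or 0.685% of 146, where 3.92% of all tested clusters were called, 2.13% higher and 1.79% lower. Apolipoprotein D (Cluster-2499.86302) had 167, 103 and 76.7 CPM in combined-exposure brains, against 43.3, 28.0 and 47.3 CPM in control brains, without overlap (1.55 ± 0.36, edgeR adjusted p = 0.0294). Omission of control replicate 4, 5 or 6 or combined replicate 4 or 5 ended the call, with an adjusted p of up to 0.130. Cadmium brains had 50.7, 53.3 and 47.8 CPM and polystyrene brains 62.9, 69.8 and 25.1 CPM. Muscle markers summed to 38336, 26112 and 21433 CPM in combined-exposure brains and 12452, 8712 and 18861 CPM in control brains, without overlap, so combined-exposure brains differed from controls in these transcripts too, and their part in the result was not tested. All 8 tested desaturases had a log2 fold change below 0 in this comparison, with a median of -0.26, and 0 were called. Of the 146 lipid clusters 79 had a change above 0 and 67 below, and the median over all tested clusters was -0.0086. The family was picked after its values were seen and its clusters are not independent, so the shared sign carries no test.

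Against cadmium, the combined exposure in brain called 1 cluster higher and 1 lower of 146 (1.37%), where 2.79% of all tested clusters were called, 1.25% higher and 1.53% lower. The higher one was the brain-high LRP2 Cluster-2499.38543, with 402, 177 and 244 CPM in combined-exposure brains and 73.3, 105 and 67.3 CPM in cadmium brains (1.75 ± 0.40, edgeR adjusted p = 0.0355, ended by 8 of 12 omissions). Control brains ranged over both, at 182, 56.2 and 164 CPM, with replicate 5 the lowest. Muscle markers summed to 38336, 26112 and 21433 CPM in combined-exposure brains and 12922, 18878 and 12070 CPM in cadmium brains, without overlap. In control brains they summed to 12452, 8712 and 18861 CPM, and their part in this call was not tested. The lower cluster was the liver-high LRP2 Cluster-2499.86347 (-2.78 ± 0.66, edgeR adjusted p = 0.0369, ended by 4). Omissions moved the count between 0, without cadmium replicate 4 or 5 or combined replicate 4, and 5, without control replicate 5.

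Cadmium in brain called 3 clusters higher and 1 lower of 146 (2.74%), where 4.34% of all tested clusters were called, 2.6% higher and 1.75% lower. The 3 higher ones were all liver transcripts at trace level in brain. Inactive pancreatic lipase-related protein 1 Cluster-2499.87865 had 0.707, 1.94 and 1.1 CPM in cadmium brains, against 0.200, 0 and 0.130 CPM in control brains (edgeR adjusted p = 0.0337, ended by 6 of 12 omissions), resting on 56 counts in cadmium brains (95% exact Poisson interval 42.3 to 72.7) and 5 in control brains (1.62 to 11.7), intervals that cover counting error only. LRP2 Cluster-2499.86347 had 4.24, 5.0 and 1.85 CPM in cadmium brains and 0.667, 0.427 and 0.975 CPM in control brains (edgeR adjusted p = 0.0498, ended by 7). LRP2 Cluster-2499.88239 had 1.86, 1.34 and 1.44 CPM in cadmium brains and 0.200, 0.142 and 0.520 CPM in control brains (edgeR adjusted p = 0.0425, ended by 9). In control livers the same 3 clusters averaged 788, 1731 and 461 CPM, on the scale of all samples.

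These trace transcripts were followed as a group. On that scale, 21 lipid clusters had at least 100 CPM in control liver and a mean over all 12 brains under 1% of it. Their summed level was 30.1, 39.0 and 20.8 CPM in cadmium brains, 19.5, 12.6 and 9.62 CPM in polystyrene brains, 13.9, 16.6 and 18.3 CPM in combined-exposure brains and 18, 8.18 and 19.9 CPM in control brains. Cadmium brains thus held the highest sums, just above the highest control brain, and 19 of the 21 clusters had a higher mean in cadmium than in control brains, against 10 with polystyrene and 12 with both. The median of the 21 was 0.136% of the control liver level in cadmium brains and 0.0488% in control brains. Over all 102 digestive gland marker clusters the sum was 4161 ± 568 CPM in cadmium brains and 3522 ± 1477 CPM in control brains, which overlapped. Endoglucanase E-4, a digestive gland marker given above for the control organs, ranged over 1.95 to 5.51 CPM in cadmium brains. It ranged over 0.110 to 1.79 CPM in control brains, without overlap. Cadmium brain values of the other single markers are not given here, and the part of digestive gland RNA in the 3 calls was not tested. The group holds the 3 called clusters and was chosen after its values were seen. Its clusters may share reads, are not independent and carry no test. Of 146 lipid clusters tested in brain, the log2 change was above 0 for 97 with cadmium, 71 with polystyrene and 79 with both.

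**Figure D5:**
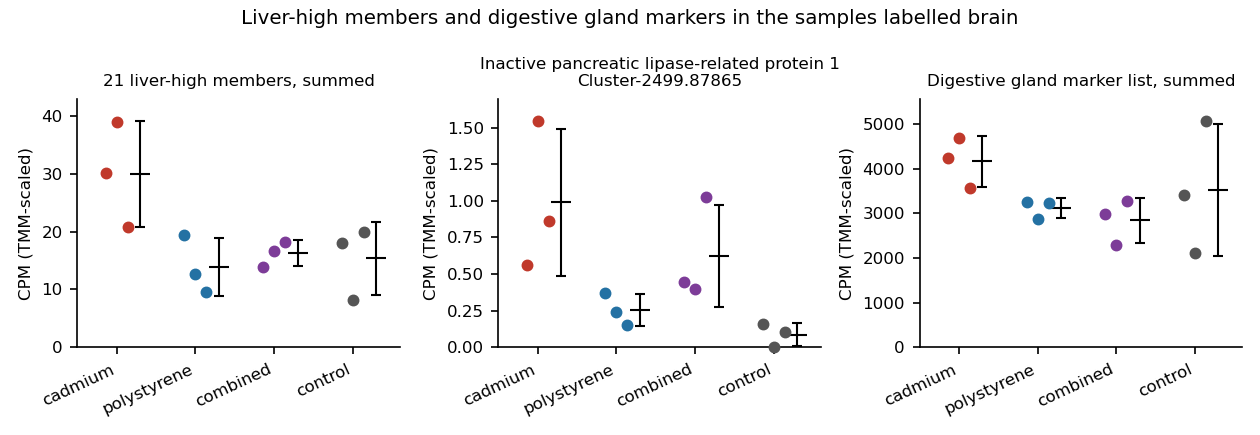
Levels in each brain sample (points, 3 per group, with mean and SD beside them; CPM, linear axes from 0) of 21 liver-high lipid clusters summed, of Inactive pancreatic lipase-related protein 1 and of the digestive gland marker list summed. Cadmium brains hold 20.8 to 39.0 CPM of the 21 clusters and control brains 8.18 to 19.9, while the marker sums of these groups overlap.

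The lower cluster with cadmium in brain was 3-hydroxyacyl-CoA dehydrogenase type-2 (Cluster-2499.99304), a mitochondrial oxidation enzyme. It had 10.1, 12.2 and 12.5 CPM in cadmium brains and 18.3, 34.8 and 16.1 CPM in control brains, without overlap (-0.99 ± 0.26, edgeR adjusted p = 0.0439), and the highest value was that of control replicate 5. Of 12 omissions 9 ended the call, and without control replicate 5 the adjusted p was 0.133. The number of lipid clusters called with cadmium in brain fell to 0 without control replicate 5, cadmium replicate 4 or cadmium replicate 5. It was the 1 call among 10 tested later oxidation enzymes, and 0 of 12 acyl-CoA dehydrogenases and 0 of 6 carnitine acyltransferases were called in brain under any exposure.

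The difference between the organs' responses was tested directly, as the log2 change in brain minus that in liver. With cadmium 3 clusters were called higher in brain and 0 lower of 183 (1.64%), where 2.23% of all tested clusters were called, 1.41% higher and 0.815% lower. With polystyrene 3 were called higher and 1 lower (2.19%), where 2.84% of all were, 1.72% higher and 1.12% lower. With both, 2 were called higher and 1 lower (1.64%), where 1.98% of all were, 1.2% higher and 0.78% lower. LRP4 Cluster-2499.90911 responded differently to polystyrene (difference 1.07 ± 0.23, edgeR adjusted p = 0.0109) and to both together (1.18 ± 0.23, edgeR adjusted p = 0.00736), and no omission among 24 ended either. On the scale of all samples it had 97.5, 89.2 and 118 CPM in combined-exposure brains and 81.5, 72.4 and 73.7 CPM in control brains, and 25.6, 17.3 and 21.4 CPM in combined-exposure livers and 31.0, 43.5 and 34.4 CPM in control livers. It was thus higher in all 3 combined-exposure brains and lower in all 3 combined-exposure livers than in the controls of the same organ. In polystyrene livers it had 27.1, 28.7 and 35.0 CPM, which overlapped the control livers. ELOVL4 Cluster-2499.82230 differed with polystyrene (1.25 ± 0.31, edgeR adjusted p = 0.0251, ended by 6 of 24 omissions), with 10.3, 10.6 and 10.9 CPM in polystyrene livers and 12.2, 10.6 and 11 CPM in control livers.

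Other genes of lipid metabolism, outside the 211, were followed as 78 clusters found by 24 name patterns. In control brain 12 were called higher and 38 lower than in control liver, of 66 tested, with a median log2 fold change of -1.18. Of all clusters tested between the control organs, 23.5% were called higher in brain and 26.2% lower. In liver 0 of 60 tested were called with cadmium, 2 higher with polystyrene, and 1 higher and 2 lower with both, where 3.46%, 3.14% and 6.24% of all tested clusters were called. Among these were calls in 4 tested clusters of lipid storage, with 1 higher with polystyrene and 1 lower with both. In brain 0 of 60 were called with cadmium, 3 higher with polystyrene and 0 with both, where 4.34%, 7.08% and 3.92% of all were. Long-chain-fatty-acid--CoA ligase 4 (Cluster-2499.94804), which activates long polyunsaturated fatty acids in vertebrates, had 13.1, 10.3 and 8.0 CPM in combined-exposure livers, against 20.7, 24.6 and 23.0 CPM in control livers (-1.12 ± 0.20, edgeR adjusted p = 0.00588, kept in every omission). It was also below cadmium livers, at 21.2, 20.1 and 22.5 CPM (-1.02 ± 0.20, edgeR adjusted p = 0.0163, ended by 1 of 12 omissions), and polystyrene livers, at 17, 25.2 and 28.2 CPM (-1.17 ± 0.19, edgeR adjusted p = 0.00973, ended by 1). NPC intracellular cholesterol transporter 2 homolog (Cluster-2499.85978), a sterol carrier of lysosomes, rose to 201, 187 and 194 CPM in combined-exposure livers, against 139, 157 and 135 CPM in control livers (0.44 ± 0.11, edgeR adjusted p = 0.0265, ended by 4).

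The 3 calls with polystyrene in brain were of the following clusters. NPC intracellular cholesterol transporter 1 (Cluster-2499.33656), which exports cholesterol from lysosomes, had 4.41, 8.75 and 8.62 CPM in polystyrene brains, against 1.60, 1.57 and 2.02 CPM in control brains (2.07 ± 0.37, edgeR adjusted p = 0.00483). Phosphatidate phosphatase LPIN1 (Cluster-2499.89643), which makes diacylglycerol, had 235, 212 and 192 CPM in polystyrene brains, against 116, 115 and 104 CPM in control brains (0.93 ± 0.17, edgeR adjusted p = 0.00613). Both calls were kept in every omission. Sterol regulatory element-binding protein cleavage-activating protein (Cluster-2499.46858), which escorts the regulators of sterol synthesis, had 2.87, 3.96 and 6.84 CPM in polystyrene brains, against 1.13, 1.35 and 1.37 CPM in control brains (1.82 ± 0.43, edgeR adjusted p = 0.0223, ended by 4 of 12 omissions). In liver, Long-chain-fatty-acid--CoA ligase 1 (Cluster-2499.90053) rose with polystyrene to 96.2, 84.9 and 91.6 CPM, against 63.8, 59.9 and 59.0 CPM in control livers (0.58 ± 0.11, edgeR adjusted p = 0.0126, ended by 4).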

How the data were processed

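Total RNA was purified with an RNeasy kit and made into mRNA libraries with a SMARTER kit, per the labels' protocols. The authors deposited 1 table of expected counts per gene cluster for 24 samples (estimated counts, not scaled between samples, of which 3.54 to 7.14% per library are not whole). Per the file headers, the authors also list each cluster's length and its best Swiss-Prot match with a score, and the match score was used only to describe names. The assembler, aligner, counter and strand setting are not given in the sources used here.

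Counts were rounded to whole numbers and analysed with edgeR 4.0.16 in R 4.3.3: filterByExpr with a minimum count of 10, TMM scaling, robust quasi-likelihood fits with 1 mean per group, and Benjamini-Hochberg adjustment over all clusters tested. Liver and brain were fitted separately, 12 samples each (55762 and 64046 clusters), and all 24 together (78809 clusters) for contrasts between the organs. CPM of exposure comparisons are on the scale of 1 organ, those of organ contrasts on the scale of all samples, and TPM use the listed lengths. Standard errors are the log2 fold change over the square root of F. Values after ± are SD for levels and SE for log2 fold changes.

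Alternatives were DESeq2 1.42.0 (Wald test, or its size factors in edgeR), no filter, a filter of 1 CPM in 3 samples, only the 6 samples compared, a replicate block, and omission of each library. Tested on simulated data, the cadmium comparison recovered 60% of 4-fold changes in liver and 48% in brain. False calls were 6 of 141 in liver and 8 of 122 in brain. Changes were set only in clusters above a minimum mean count and no outlying library was simulated, so recovery in low clusters was not tested. Clusters named in the text are up to 3 called per family and direction with at least 1 CPM and the most abundant per family and organ. Among other lipid genes they are up to 1 called cluster per name pattern and comparison. The members and lists were chosen with earlier results of these data known, and families and marker names were tidied by name after the table was seen and before any test of the members.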

Additional observations from a re-analysis of the deposited data

Results flagged for a closer look

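For 10 results the response to an exposure differed between brain and liver by a test of the difference itself, the log2 change in brain minus that in liver, in edgeR's quasi-likelihood test over all clusters. With cadmium, Apolipophorins Cluster-2499.87715 differed by 1.93 ± 0.42 (edgeR adjusted p = 0.0148) and Inactive pancreatic lipase-related protein 1 Cluster-2499.87865 by 3.19 ± 0.59 (edgeR adjusted p = 0.00456), and neither was lost in any of 24 omissions. Both are liver transcripts at trace level in brain. LRP2 Cluster-2499.114993, which was lower in cadmium and polystyrene livers than in their controls, differed by 6.22 ± 1.47 with cadmium (edgeR adjusted p = 0.0343, lost in 11 of 24 omissions) and by 5.73 ± 1.26 with polystyrene (edgeR adjusted p = 0.0210, lost in 5).

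LRP4 Cluster-2499.90911 differed by 1.07 ± 0.23 with polystyrene (edgeR adjusted p = 0.0109) and by 1.18 ± 0.23 with the combined exposure (edgeR adjusted p = 0.00736), both kept in every omission. ELOVL4 Cluster-2499.82230 differed by 1.25 ± 0.31 with polystyrene (edgeR adjusted p = 0.0251, lost in 6). Inactive pancreatic lipase-related protein 1 Cluster-2499.87865 differed by 2.52 ± 0.62 with the combined exposure (edgeR adjusted p = 0.0330, lost in 6).

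Medium-chain acyl-CoA ligase ACSF2 Cluster-2499.76419 went the other way, by -1.22 ± 0.33 with polystyrene (edgeR adjusted p = 0.0413, lost in 17 of 24 omissions) and -1.29 ± 0.33 with the combined exposure (edgeR adjusted p = 0.0389, lost in 12). On the scale of all samples it had 3.01, 1.49 and 2.16 CPM in combined-exposure brains and 3.16, 4.70 and 4.15 CPM in control brains. In liver it had 17.5, 23.4 and 21.3 CPM with the combined exposure and 15.8, 15.6 and 14.8 CPM in controls. Combined-exposure brains were thus below, and combined-exposure livers above, all controls of the same organ, though neither organ alone was called (edgeR adjusted p = 0.175 in brain and 0.156 in liver). With polystyrene it had 2.03, 1.91 and 1.91 CPM in brains, below all control brains, and 20.6, 14.8 and 17.3 CPM in livers, which overlapped the control livers.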

How the results depend on the processing

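No named call changed sign under any alternative. Counts of called lipid clusters moved by over 1.5 times as follows. With cadmium in brain (4), no filter gave 10, the 6 samples alone 1 and the replicate block 1. With cadmium in liver (3), the Wald test gave 14, no filter 19 and the 6 samples 5. With polystyrene in brain (6) no filter gave 10, and in liver (8) the block gave 5. With the combined exposure in brain (1) the Wald test gave 2, and in liver (15) it gave 29 and no filter 27. For combined against cadmium in brain (2), the Wald test gave 6, no filter 4, the 6 samples 4 and the block 0, and in liver (8) these gave 16, 19, 3 and 4. For combined against polystyrene in brain (2), the Wald test gave 4 and no filter 6, and in liver (2) the Wald test gave 6, no filter 9, and size factors, the 6 samples, the block and the stricter filter 1 each. For brain minus liver, cadmium (3) gave 9 by the Wald test and 6 with no filter, polystyrene (4) 7 and 9, and combined (3) 8, 10 and, with the block, 1. Leaving out 1 library gave 0 to 4 with cadmium in brain, 0 to 8 in liver, 1 to 8 with polystyrene in brain, 1 to 10 in liver, 0 to 1 with the combined exposure in brain and 3 to 18 in liver. It gave 0 to 5 for combined against cadmium in brain, 0 to 12 in liver, 0 to 2 for combined against polystyrene in brain, 0 to 3 in liver and 129 to 140 between control organs. For brain minus liver it gave 2 to 4 with cadmium, 1 to 7 with polystyrene and 1 to 5 combined. The cause was not tested. Same-numbered samples of 1 organ deviated together (r over 0.1) in 1 of 18 pairs in liver and 2 of 18 in brain. Samples with different numbers did so in 2 of 36 pairs in liver and 4 of 36 in brain. No sign of pairing by number was thus seen within an organ, but weak correlations cannot exclude it. Liver and brain samples were not compared in this way, so pairing across organs stays unknown. The replicate block ended 24 of 59 named calls outside the organ contrast. At this depth, simulated 2-fold changes of the cadmium comparison, set only in clusters above a minimum mean count, were recovered in 28% of cases in liver and 4% in brain.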
